A study of Mus musculus with 4 samples.

Results

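The genes that encode the proteins of the cytosolic ribosome were examined in LSK cells, the lineage-/SCA-1+/c-KIT+ fraction of mouse bone marrow that holds hematopoietic stem and progenitor cells, with and without *Bptf*, which encodes the largest subunit of the nucleosome remodeling factor NURF. Members were chosen by symbol (*Rpl* or *Rps* followed by a number and at most a short suffix, with *Rpsa*, *Rplp0*, *Rplp1*, *Rplp2* and *Fau* added) and by averaging 10 or more normalized counts over the 4 libraries. The symbols matched 87 of the 18598 listed genes and 85 of them passed the mean. The other two, *Rpl39l* and *Rpl10l*, had means of 9.32 and 3.85 and were not tested. Of the 85 genes, 46 encode canonical large-subunit proteins, 32 encode canonical small-subunit proteins and 7 are paralogs or retrocopies (*Rpl3l*, *Rpl6l*, *Rpl7l1*, *Rpl22l1*, *Rps27l*, *Rps3a3* and *Rps4l*). They lie on 20 chromosomes. The choice used no difference between the genotypes.

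RNA-seq was performed on 2 control libraries and 2 *Bptf* cKO libraries, each made from LSK cells of 5 C57BL/6 mice of about 3 months. Control mice carried the floxed allele without cre (*Bptf* f/f, labelled control), and cKO mice carried *Bptf* f/f with *Mx1*-cre (labelled *Bptf* -/-). Both groups received pIpC, and cells were sorted 10 days after cre induction. pIpC induces interferon, which switches on the *Mx1* promoter in interferon-responsive cells of many tissues, and no library of mice with *Mx1*-cre alone was analysed here, so an effect of cre cannot be told apart from that of the deletion. The question addressed was whether transcripts of this housekeeping complex differ in LSK cells after loss of *Bptf*. Replicates are 2 pools of mice per genotype, so each p-value rests on the spread between 2 libraries per group. In sorted bulk cells, fewer cells of a type and less RNA per cell cannot be told apart.

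Each cytosolic ribosome carries a copy of nearly every one of these proteins, so cells make them in near-equal molar amounts, and surplus protein is degraded. Their mRNAs typically begin with a C followed by a run of pyrimidines, the 5′ terminal oligopyrimidine (TOP) tract, through which mTOR signaling and LARP1 set their translation. In blood, loss of a single copy of any of several of these genes causes Diamond-Blackfan anemia, and the RPL5 and RPL11 proteins, bound to 5S rRNA, restrain MDM2 and so raise p53 when ribosome assembly fails.

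The 30 bases around the annotated transcription start (15 before it and 15 from it onward), given by RefSeq on GRCm38.p6, are shown for 8 genes that stand for the groups described later. The capitals mark the longest stretch of C and T that begins with C and has at least 5 bases. *Fau* (chr19:6057932-6057961, plus strand), *Rplp2* (chr7:141447636-141447665, plus), *Rpl14* (chr9:120571502-120571531, plus) and *Rps27* (chr3:90213634-90213663, minus) have the tract across the start base. In *Rpl4* (chr9:64173372-64173401, plus), *Rps27l* (chr9:66946071-66946100, plus) and *Rpl22l1* (chr3:28805493-28805522, plus) it lies before or after the annotated start. *Rps13* (chr7:116334176-116334205, minus) has none in this window.
Fau: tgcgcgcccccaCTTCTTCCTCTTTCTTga
Rplp2: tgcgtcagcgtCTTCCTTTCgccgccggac
Rpl14: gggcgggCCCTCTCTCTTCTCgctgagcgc
Rps27: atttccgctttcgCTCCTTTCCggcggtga
Rpl4: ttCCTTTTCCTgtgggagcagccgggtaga
Rps27l: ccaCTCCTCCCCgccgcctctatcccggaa
Rpl22l1: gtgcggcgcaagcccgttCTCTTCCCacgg
Rps13: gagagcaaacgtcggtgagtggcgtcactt

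Start-site sequence was matched by symbol for 62 of the 85 genes. A C at the annotated start followed by at least 4 bases that are each C or T, read on the transcribed strand, was found in 14 of the 62 genes (22.6%), compared with 2.90% of 10316 other tested genes and 3.01% of all 27025 genes of the RefSeq table. A run of at least 6 such bases beginning with C anywhere in the 30 bases was found in 36 of the 62 genes (58.1%), compared with 27.5% of the other tested genes and 25.5% of all genes. The longer window contains every start base, so the counts overlap. A gene with several annotated starts counted if any of them matched, and a match or its lack says only which letters lie at the annotated position.

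The libraries held 24875746 and 14091054 reads on listed genes in control replicates 1 and 2, and 30134742 and 14104526 in cKO replicates 1 and 2. *Bptf* itself had 5520 and 5850 normalized counts in control and 3398 and 3320 in cKO (log2 difference -0.76, SE 0.090, limma adjusted p = 0.0439), so the labels hold for the targeted gene. Both replicate 2 libraries carried *Xist* and both replicate 1 libraries were near 0, at 0.775 and 3.25 normalized counts. Of 10 LSK markers 9 were below control, and their sums were 54881 to 61622 in control and 44999 to 47058 in cKO. limma, edgeR and DESeq2 each called 1 of the 10 lower and 0 higher, where 0.37%, 0.303% and 3.37% of all tested genes were called lower. All 8 tested erythroid markers were below control, with sums of 1081 to 1112 in control and 215 to 358 in cKO. Of these 8, limma called 1 lower (*Epor*), edgeR 0 and DESeq2 3 (*Hbb-bt*, *Klf1* and *Epor*). Of all tested genes, limma called 0.37% lower, edgeR 0.303% and DESeq2 3.37%. Granulocyte and monocyte markers summed to 14458 to 82139 in control and 39853 to 49592 in cKO, and B-cell markers to 1992 to 7636 and 2487 to 4288. Megakaryocyte markers summed to 3534 to 6128 in control and 4293 to 5259 in cKO, and stromal and endothelial markers to 1863 to 2859 and 2519 to 2527. The listed T and NK cell markers summed to 1290 to 2046 in control and 2260 to 2304 in cKO, and *Cd3e*, *Cd3d*, *Cd3g*, *Cd8a*, *Ncr1* and the stromal *Lepr* are not listed. Of the granulocyte and monocyte, B-cell, megakaryocyte, stromal and endothelial, and T and NK cell markers, limma and edgeR called 0, and DESeq2 called 1 lower (the stromal *Col1a2*, DESeq2 adjusted p = 0.0258). The part of any of these in the values given here was not tested.

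The summed share of ribosomal protein transcripts was slightly higher in cKO libraries. The 85 genes took 3.07% and 3.23% of all normalized counts in control replicates 1 and 2 and 3.27% and 3.42% in cKO replicates 1 and 2. Both cKO libraries lay above both control libraries, and the lower cKO library exceeded the higher control library by less than the gap between replicates. The means were 3.15% ± 0.116 in control and 3.35% ± 0.111 in cKO (SD, n = 2), a difference of 0.195 percentage points (exact two-sided permutation test, p = 0.333, the smallest p that 2 against 2 libraries can give). The difference was 0.199 points between the replicate 1 libraries and 0.192 points between the replicate 2 libraries. It ranged from 0.114 points without control replicate 1 to 0.277 points without control replicate 2. In both genotypes, the share was higher in the less deeply sequenced replicate 2 library, which also carried *Xist*. The effect of depth or sex on the share was not tested.

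**Figure D1:**
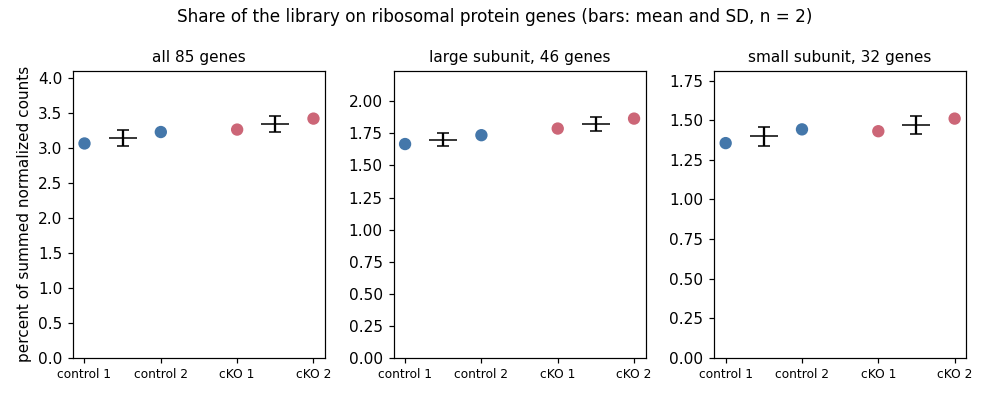
Percent of summed normalized counts (vertical axes from 0) on all 85 ribosomal protein genes, the 46 large-subunit genes and the 32 small-subunit genes, with a point per library (control in blue, cKO in red) and the mean with SD in black. For all genes the cKO libraries, at 3.27% and 3.42%, sit just above the control libraries, at 3.07% and 3.23%, and for the small subunit the groups overlap.

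The large-subunit genes gave 0.125 of the 0.195 points and the small-subunit genes gave 0.0715. In control the large-subunit genes already held more, with means of 1.70% and 1.40% of normalized counts. The large-subunit share was 1.67% and 1.74% in control and 1.79% and 1.87% in cKO, without overlap (exact permutation test, p = 0.333). The small-subunit share was 1.36% and 1.44% in control and 1.43% and 1.51% in cKO, where control replicate 2 lay above cKO replicate 1 (exact permutation test, p = 0.667). *Rpl4*, the most abundant of these transcripts by normalized count, alone took 0.258% and 0.274% in control and 0.311% and 0.319% in cKO. This was 0.0492 of the 0.125 points of the large subunit. The paralogs and retrocopies together held 0.0457% and 0.0536% in control and 0.0485% in each cKO library.

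At the level of single genes, no ribosomal protein gene passed the test with genotype alone in the model. limma, fitted to log2(normalized count + 1) over 14858 genes with Benjamini-Hochberg adjustment, called 0 of the 85 genes higher and 0 lower in cKO, where 0.37% of all tested genes were called higher and 0.37% lower (0.74% in either direction). At an unadjusted p under 0.05 there were 2 of the 85 genes, *Rps27l* and *Rps13*, compared with 15.7% of all tested genes. On reads recovered from the deposited values, the edgeR quasi-likelihood test called 0 higher and 0 lower (0.33% and 0.303% of all tested genes, 0.633% in either direction), with 3 genes at an unadjusted p under 0.05. DESeq2 also called 0 higher and 0 lower (2.15% and 3.37% of all tested genes, 5.51% in either direction), with 4 genes at an unadjusted p under 0.05. A missed threshold with 2 libraries per group does not show that a gene did not differ.

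The differences were small and mostly above 0. The median log2 difference, cKO minus control, was 0.066 over the 85 genes (quartiles -0.012 and 0.138), compared with 0.0010 over all tested genes (quartiles -0.235 and 0.192). It was 0.117 with libraries recentred on their medians, where the median of all tested genes was 0.053, and 0.037 after quantile normalization, where it was 0.017. Without control replicate 1 it was 0.017 and without cKO replicate 2 it was 0.023, whereas it was 0.116 without control replicate 2 and 0.118 without cKO replicate 1. Of the 85 genes, 61 were above 0 and 24 below, where 50.2% of all tested genes were above 0. Both cKO libraries lay above both control libraries in 25 genes (23.2% of all tested genes) and below them in 6 (23.8% of all tested genes), and 54 genes overlapped. Compared by replicate number, 48 genes were higher in cKO in both comparisons (34.5% of all tested genes) and 13 lower in both (34.4% of all tested genes).

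The spread between replicates was of the size of these differences or larger. Both replicate 2 libraries carried *Xist* and both replicate 1 libraries did not, so this spread also holds any difference that follows the replicate number. The median absolute difference was 0.094 between genotypes, 0.133 between the control libraries and 0.151 between the cKO libraries, all on the log2 scale. Over all tested genes the same values were 0.210, 0.236 and 0.184. The genotype difference exceeded both replicate differences in 22 of the 85 genes (25.9%), compared with 35.3% of all tested genes. Only *Rpl3l*, *Rps27l*, *Rpl24* and *Rpl6l* had a log2 difference past a 1.3-fold change, compared with 4370 of the 14858 tested genes, and 3 of these 4 are paralogs or retrocopies.

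**Figure D2:**
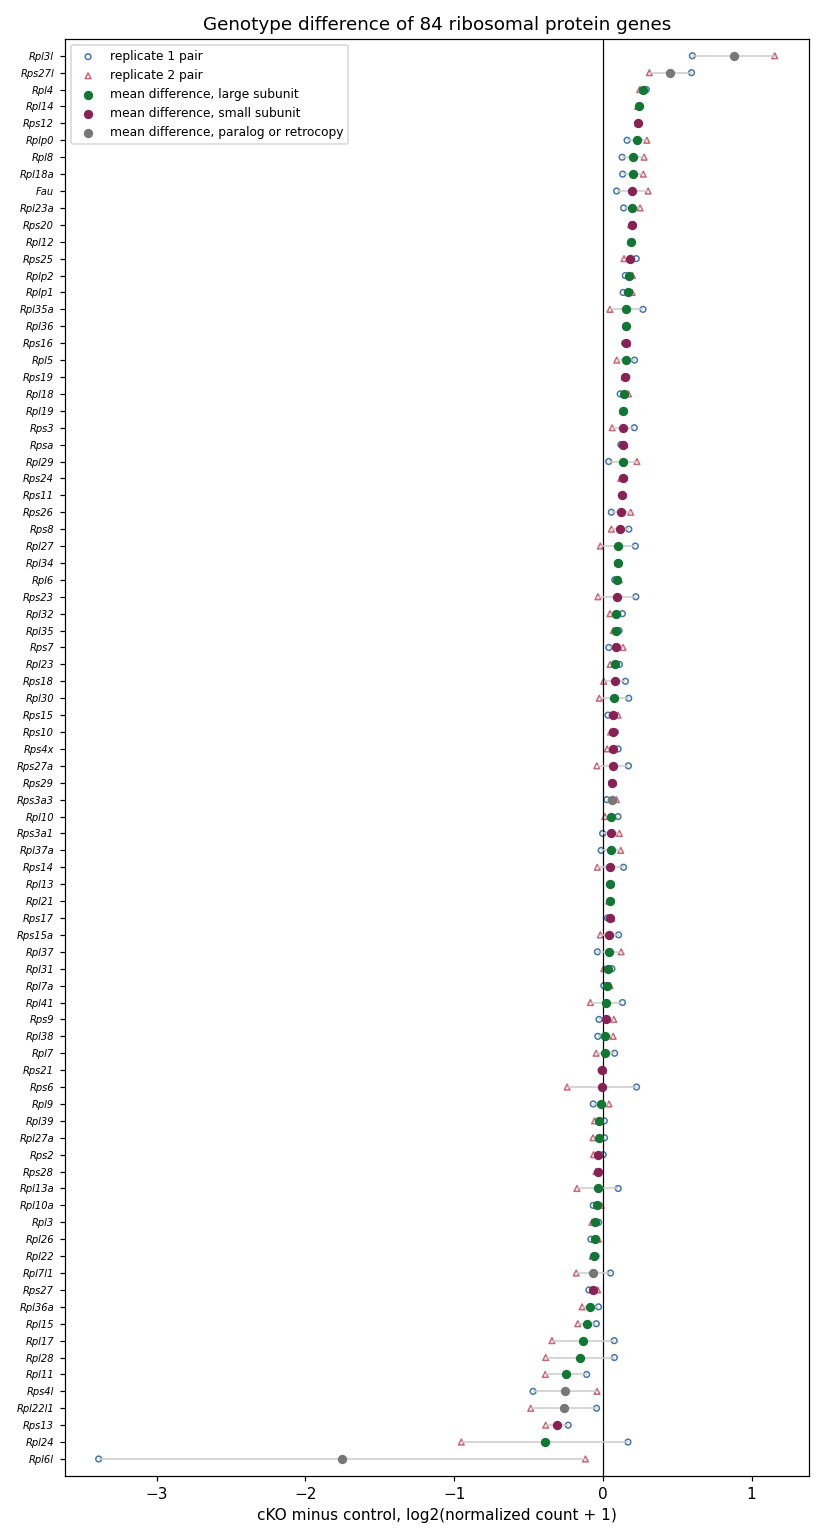
Log2 difference, cKO minus control, of 84 of the 85 genes (rows, sorted), with filled points for the fitted difference (large subunit green, small subunit purple, paralog or retrocopy grey) and open points for the difference within replicate 1 (circles) and replicate 2 (triangles), joined by a grey line. Most genes lie between 0 and 0.27, and the widest gaps between open points belong to genes with few reads such as *Rpl6l* and *Rpl24*.

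The sign of the difference varied with abundance. Among the 43 genes that averaged 5000 or more normalized counts, 36 were above 0 (83.7%), the median was 0.101, and the cKO libraries were both above control in 18 (41.9%) and both below in 0, compared with 23.2% and 23.8% of all tested genes. Other tested genes of that abundance, 668 of them, were also mostly above 0, with 63.9% above 0, a median of 0.070, and both cKO libraries above control in 35.9% and below in 14.2%. The 31 genes with means between 1000 and 5000 had a median of 0.054, and the 11 genes under 1000 had a median of -0.133 with 4 above 0. Over the 85 genes the Spearman correlation of the log2 difference with the mean was 0.375, as a description across genes that share the same 4 libraries.

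In the large subunit, 32 of 46 genes were above 0 with a median of 0.056. *Rpl4*, whose protein reaches into the wall of the peptide exit tunnel, had 49809 and 53480 normalized counts in control and 60994 and 63512 in cKO. The groups did not overlap, and the fold was 1.21 (log2 difference 0.27, SE 0.107, limma adjusted p = 0.317). *Rpl4* lies at chr9:64173375-64178666 on GRCm38 with 10 exons. *Rpl14*, a protein of the solvent side, had 5390 and 6079 in control and 6408 and 7151 in cKO, again without overlap (log2 difference 0.24, SE 0.111, limma adjusted p = 0.385). *Rpl8*, next to the peptidyl transferase center, had 24886 and 24515 in control and 27223 and 29717 in cKO (log2 difference 0.20, SE 0.100, limma adjusted p = 0.415), with both cKO libraries on top. None of the 3 passed the test.

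The P-stalk genes encode the flexible arm that recruits translation GTPases, with *Rplp0* as its base and *Rplp1* and *Rplp2* as its dimers. *Rplp0* had 25261 and 24522 normalized counts in control and 28285 and 30107 in cKO (log2 difference 0.23, SE 0.097, limma adjusted p = 0.347). *Rplp1* had 15854 and 16957 in control and 17426 and 19440 in cKO (log2 difference 0.17). *Rplp2* had 11774 and 11982 in control and 13073 and 13755 in cKO (log2 difference 0.18). In all 3 genes both cKO libraries were above both control libraries, and none passed the test.

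The canonical genes with a mean under 100 normalized counts, *Rpl24* and *Rpl23a*, belong to the large subunit. *Rpl24*, at an intersubunit bridge, had only 49.6 and 61.0 normalized counts in control and 55.9 and 31.0 in cKO, from 22 to 86 reads, so its log2 difference of -0.39 (SE 0.412, limma adjusted p = 0.717) rests on the low cKO replicate 2 library and is 0.023 without it. *Rpl23a*, which sits at the exit of the tunnel, had 19.4 and 23.6 in control and 21.5 and 28.2 in cKO (log2 difference 0.20). These were the lowest levels of any canonical gene. Both genes share most of their transcript with other annotated genes, as described later.

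In the small subunit, 26 of 32 genes were above 0 with a median of 0.074. *Rps12* had 6457 and 8923 normalized counts in control and 7600 and 10513 in cKO. These groups overlapped, although cKO exceeded control by 0.24 on the log2 scale within each replicate number (log2 difference 0.24, SE 0.220, limma adjusted p = 0.678). *Rps13* had 2179 in each control library and 1854 and 1669 in cKO. It was the small-subunit gene with the lowest difference (-0.31, SE 0.103, limma adjusted p = 0.255), without overlap and without passing the test.

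A pair of small-subunit proteins is made as fusions that begin with a ubiquitin or ubiquitin-like domain. *Fau*, fused to the ubiquitin-like FUBI, had 6085 and 5269 normalized counts in control and 6488 and 6509 in cKO (log2 difference 0.20), without overlap. *Rps27a*, fused to ubiquitin, had 1582 and 1908 in control and 1782 and 1855 in cKO (log2 difference 0.066), with both cKO libraries inside the control range. Neither passed the test. *Rpl36al* and *Rpl37rt* fell outside the symbol pattern and had log2 differences of -0.0019 and 0.15.

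The paralogs did not move as a group, with 3 above 0, 4 below and a median of -0.064. *Rps27l*, a paralog of *Rps27* and a known target of p53, had 1354 and 1459 normalized counts in control and 2048 and 1813 in cKO. It had the lowest unadjusted p of the 85 genes, with no overlap and a fold of 1.37 (log2 difference 0.45, SE 0.114, limma adjusted p = 0.165, edgeR adjusted p = 0.167, DESeq2 adjusted p = 0.0541). *Rps27*, the canonical gene of this pair, had 1424 and 2043 in control and 1334 and 1994 in cKO (log2 difference -0.064), where the replicates differed far more than the genotypes.

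*Rpl22l1* and *Rpl22* form a pair in which RPL22 protein is known to repress *Rpl22l1*. *Rpl22l1* had 2184 and 3296 normalized counts in control and 2120 and 2355 in cKO, where the high value of control replicate 2 sets the log2 difference of -0.26 (SE 0.208, limma adjusted p = 0.612), which is 0.033 without that library. *Rpl22* had 10156 and 9552 in control and 9838 and 9092 in cKO (log2 difference -0.059), with overlapping groups. *Rpl3l*, the muscle-restricted form of *Rpl3*, had 15.5 and 8.32 in control and 24.0 and 19.8 in cKO (log2 difference 0.88, SE 0.539, limma adjusted p = 0.505). It was covered by as few as 6 reads, and both cKO libraries were above control.

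The remaining copies did not pass the test either. *Rpl6l*, a processed pseudogene at chr10:111125851-111126721, had 50.4 and 13.9 normalized counts in control and 3.90 and 12.7 in cKO (log2 difference -1.75, SE 0.866, limma adjusted p = 0.416). Control replicate 1 stood apart there, with 65 reads compared with 6 to 10 in the others. *Rps4l*, a single-exon copy of *Rps4x*, had 177 and 188 in control and 127 and 183 in cKO (log2 difference -0.25), with cKO replicate 1 low. *Rpl7l1*, a relative of *Rpl7*, had 2672 and 3242 in control and 2769 and 2863 in cKO (log2 difference -0.064), inside the control range.

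The parent genes of the named paralogs had small differences. Over *Rpl3*, *Rpl7*, *Rpl10*, *Rpl22*, *Rpl39*, *Rps4x* and *Rps27*, the median log2 difference was -0.023, 3 were above 0, and in none of these 7 did the groups separate. Among the parents of the retrocopies, *Rpl6* had 11382 and 11497 normalized counts in control and 12026 and 12412 in cKO, without overlap (log2 difference 0.095), and *Rps3a1* had overlapping groups (log2 difference 0.055). Neither passed the test. *Rpl3* had 11931 and 13782 normalized counts in control and 11699 and 13101 in cKO. *Rps4x* had 16809 and 19394 in control and 18049 and 19787 in cKO. The 4 X-linked members (*Rpl10*, *Rpl36a*, *Rpl39* and *Rps4x*) had log2 differences between -0.085 and 0.066.

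**Figure D3:**
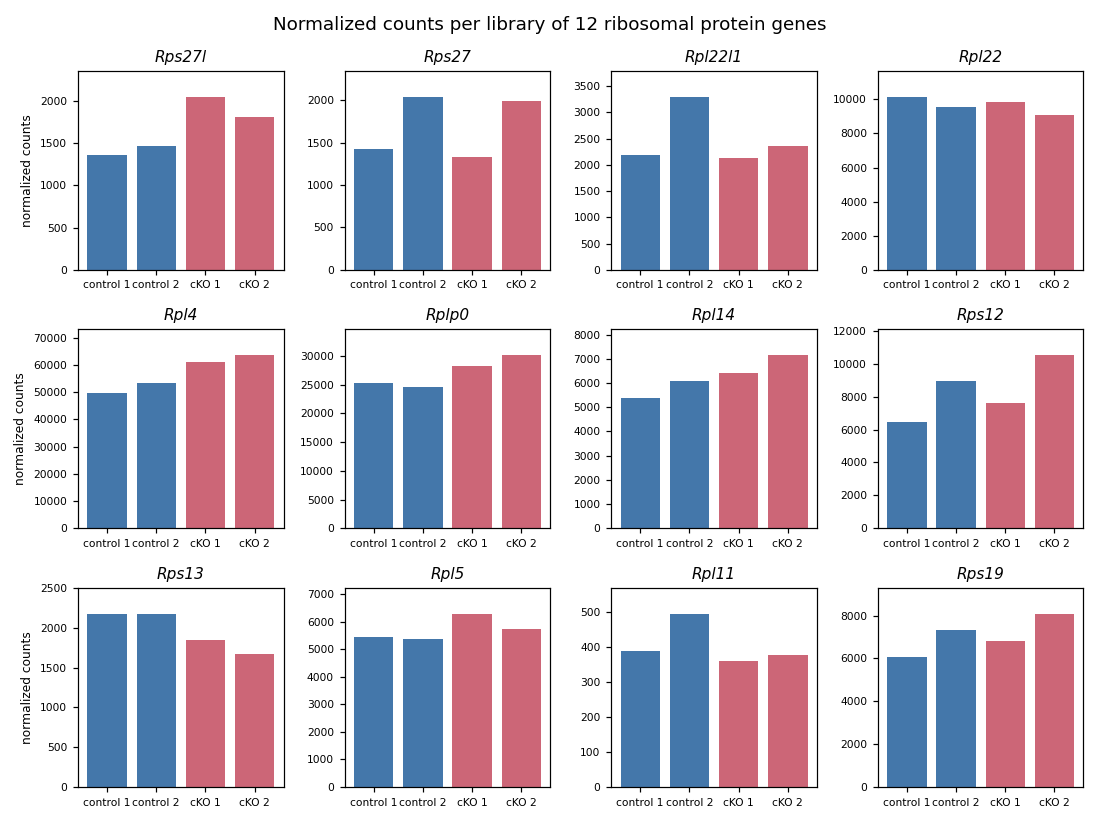
Normalized counts (vertical axes from 0) of 12 ribosomal protein genes in each library, with control bars in blue and cKO bars in red. *Rps27l* and *Rpl4* are higher in both cKO libraries and *Rps13* lower, *Rpl22l1* is set apart by control replicate 2 at 3296, and *Rps27* and *Rps12* differ more between replicates than between genotypes.

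Of the 19 genes of the Diamond-Blackfan anemia list, none was called, 14 were above 0, the median log2 difference was 0.068, and the values ran from -0.25 (*Rpl11*) to 0.16 (*Rpl35a*). *Rps19*, the gene most often mutated in that anemia, had 6084 and 7321 normalized counts in control and 6800 and 8088 in cKO (log2 difference 0.15), with overlapping groups. *Rpl35a* had 1880 and 2382 in control and 2268 and 2462 in cKO. At the lower end, *Rpl15* had 1558 and 1516 in control and 1511 and 1349 in cKO (log2 difference -0.11), without overlap.

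The partners of the 5S ribonucleoprotein lay on opposite sides of 0. *Rpl5* had 5433 and 5378 normalized counts in control and 6296 and 5737 in cKO, both above control (log2 difference 0.15, SE 0.094, limma adjusted p = 0.507). *Rpl11* had 389 and 495 in control and 361 and 378 in cKO, both below control (log2 difference -0.25, SE 0.176, limma adjusted p = 0.571). Neither passed the test, and the difference between the 2 genes was not tested.

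Levels per transcript length spanned a wide range, although the proteins are needed in near-equal amounts. Part of the range can come from the transcript chosen. That of *Rps20* had 3706 bases for 357 coding bases, which put its level at 4161 per kilobase. The effect of transcript choice was not tested. Per kilobase of the chosen GENCODE transcript, mean normalized counts had a median of 6707 and were lowest in *Rpl3l* (12.3). Among the highest were *Rpl4* (37028), *Rplp1* (34909), *Rpl32* (33750) and *Rpl8* (31240). The lowest canonical genes were *Rpl23a* (41.3), *Rpl24* (72.9), *Rps23* (181) and *Rps6* (185), the last encoding the target of S6 kinase.

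Most of these transcripts share sequence with other annotated genes, and how many of those are processed pseudogenes was not counted. The share of a transcript's 50-base words found in no other annotated gene ran from 1.35% (*Rps27*) to 100%, with a median of 38.8%, and it was under 50% in 55 genes. Among the highest genes per kilobase, *Rpl8* had 92.1%, *Rpl4* 83.5%, *Rpl32* 69.4% and *Rplp1* 40.0% of such words. *Rpl24*, *Rps6* and *Rpl23a* had 18.3%, 15.4% and 14.3%. The Spearman correlation of level per kilobase with that share was 0.327 over the 85 genes, given as a description. How reads that match several loci were counted is not given in the sources used here, so levels of the genes with low shares are uncertain.

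**Figure D4:**
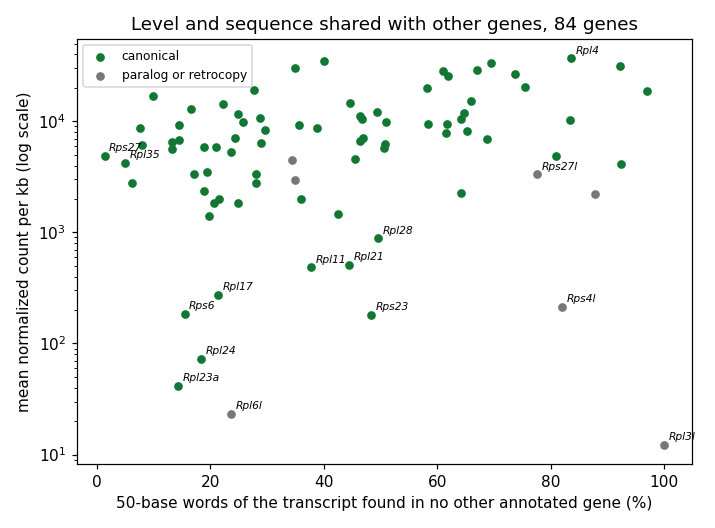
Mean normalized count per kilobase of transcript (vertical, log scale) against the percent of the transcript's 50-base words found in no other annotated gene (horizontal) for 84 of the 85 genes, canonical in green and paralogs or retrocopies in grey. The canonical genes under 1000 per kilobase, such as *Rpl23a* and *Rpl24*, all have less than 50% of such words. *Rpl35* and *Rps27*, at 4240 and 4924 per kilobase, lie above that level with few of them.

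Reads on the named pseudogene copies were part of the same table. It listed 135 genes whose symbol is that of a ribosomal protein gene followed by -ps, 69 of which passed the mean, for 38 parent genes. Together they held 0.205% and 0.220% of normalized counts in control and 0.206% and 0.213% in cKO, and 0 were called, with a median log2 difference of 0.050. For 6 copies the mean exceeded that of the parent. *Rpl28-ps3* had a mean of 6662 compared with 682 for *Rpl28*, *Rps13-ps1* 5672 compared with 1970 for *Rps13*, and *Rps6-ps1* 2204 compared with 162 for *Rps6*. Summing the copies into their parents moved the log2 difference of *Rps13* from -0.31 to -0.14 (limma adjusted p = 0.511). No such copy was summed into *Rps27l*, so its log2 difference of 0.45 could not change. The median log2 difference was 0.095 in the 30 genes with at least 50% of such words and 0.058 in the other 55.

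The 14 genes with a pyrimidine tract at the annotated start, shown above for *Fau*, *Rplp2*, *Rpl14* and *Rps27*, had a median log2 difference of 0.056, with 9 above 0 and 0 called. Other mRNAs known to carry a TOP tract, mostly translation factors, were mostly above 0 as well. Of 18 tested, 15 were above 0, the median was 0.11 and 0 were called (1 at an unadjusted p under 0.05, and 0 in edgeR and DESeq2). Of all tested genes, 50.2% were above 0 and 15.7% had an unadjusted p under 0.05. *Btf3*, of the nascent-chain-associated complex, had 2950 and 3502 normalized counts in control and 3723 and 4179 in cKO (log2 difference 0.30, SE 0.126, limma adjusted p = 0.351).

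Among regulators of TOP mRNAs, 1 of 14 genes passed the limma test, higher in cKO, where 0.37% of all tested genes were called higher. edgeR called 1 higher (0.33% of all tested genes) and DESeq2 called 2 higher (2.15% of all tested genes). *Eif4ebp1*, which encodes the cap-binding repressor 4E-BP1 that mTOR phosphorylates, had 1002 and 880 normalized counts in control and 1982 and 2070 in cKO. It rose by 1.11 on the log2 scale (SE 0.115, limma adjusted p = 0.0332), with each cKO library far above both controls. *Larp1*, whose protein binds the TOP tract, had 7474 and 7222 in control and 10078 and 10197 in cKO (log2 difference 0.46, SE 0.087, limma adjusted p = 0.0964, DESeq2 adjusted p = 0.0014). The list's median was 0.12, with 12 of 14 above 0.

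Factors that assemble ribosomes were mostly above control, and none passed the limma test. Of 73 tested ribosome biogenesis genes, 65 were above 0 (50.2% of all tested genes), and the median log2 difference was 0.23. Both cKO libraries lay above both controls in 51 (23.2% of all tested genes). limma called 0 (26 at an unadjusted p under 0.05, where 15.7% of all tested genes had one), and edgeR called 0. DESeq2 called 3 higher and 0 lower, where 2.15% and 3.37% of all tested genes were called. *Rrp12*, which acts in export of both subunits, had 1425 and 1836 normalized counts in control and 2682 and 2722 in cKO (log2 difference 0.74, SE 0.145, limma adjusted p = 0.107, DESeq2 adjusted p = 0.0021). *Bysl*, a small-subunit assembly factor, had 846 and 909 in control and 1282 and 1219 in cKO (log2 difference 0.51, SE 0.111, limma adjusted p = 0.129, DESeq2 adjusted p = 0.0254). The difference between this list and the ribosomal protein genes was not tested.

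The machinery that makes ribosomal RNA showed smaller values. Of 20 RNA polymerase I genes, 12 were above 0 with a median log2 difference of 0.042, and limma, edgeR and DESeq2 called 0 (0 at an unadjusted p under 0.05 in limma). Of 22 genes of RNA polymerase III and 5S transcription, 17 were above 0 with a median of 0.10. limma called 0 (1 at an unadjusted p under 0.05), edgeR 0 and DESeq2 1, higher in cKO. Of all tested genes, 50.2% were above 0, 15.7% had an unadjusted p under 0.05 in limma, and DESeq2 called 2.15% higher. *Polr3e*, a polymerase III subunit, had 1429 and 1465 normalized counts in control and 2130 and 2049 in cKO (log2 difference 0.53, SE 0.096, limma adjusted p = 0.0926, DESeq2 adjusted p = 0.0035).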

How the data were processed

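RNA-seq of sorted LSK cells (2 control and 2 *Bptf* cKO libraries) was analysed from a single table. The authors deposited a signal for each gene and library, made by dividing gene counts by the library's size factor. Per the labels' processing notes, HISAT2, featureCounts and DESeq2 were used with GRCm38 (mm10), and versions and the handling of multi-mapped reads are not given in the sources used here. Columns of the authors' own comparison (log2 fold change, its error, statistic, p-value and adjusted p-value) were not used. Whole reads were recovered for 100% of values (tolerance 0.02), and the smallest sum of a listed gene was 11 reads. Counting error matters for genes with few reads only, and the number of libraries limits the others.

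Genes with a mean of at least 10 (14858) were compared as log2(normalized count + 1) with limma 3.58.1 (two-sided, genotype alone in the model, with a trend of variance on mean, Benjamini-Hochberg over all tested genes, call at adjusted p under 0.05) in R 4.3.3. Fold changes on this scale understate those of low genes. edgeR 4.0.16 and DESeq2 1.42.0 were run on recovered reads. The fits were tested on simulated data. Gene positions, transcripts and 50-base words came from GENCODE vM21 (the shortest principal transcript with the longest coding sequence per gene), and start-site sequences from RefSeq.

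Genes named are the 5 largest and 5 smallest differences, the 5 highest per length, those with a mean under 100, P-stalk, paralog, fusion and 5S genes, those called in any fit, the extremes of the anemia list, and, from the other lists, up to 2 per direction among genes called in limma with or without the replicate number as a block. *Rps23*, *Rps6*, *Rps20*, *Rpl28*, *Rpl36a*, *Rpl35*, *Rpl6*, *Rps3a1*, *Col1a2*, *Hbb-bt*, *Klf1*, *Epor*, the pseudogene copies and the genes outside the symbol pattern were named after their values were seen. Results of some genes that the rule names are not reported here. The members, lists and named-gene rule were chosen with earlier results of these data known.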

Additional observations from a re-analysis of the deposited data

How the results depend on the processing

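The 2 libraries per genotype limit every test, and shared sequence limits the levels of single genes. Counts of all genes called higher and lower, 55 and 55 in limma, were 896 and 1242 with the replicate number as a block, 2 and 0 without the mean-variance trend, 49 and 45 in edgeR, 891 and 1229 in edgeR with the block, 319 and 500 in DESeq2, and 916 and 1266 with pseudogene copies summed into their parents and the block. They ranged from 1 to 76 and from 0 to 41 when a library was left out (17 lower without control replicate 2, and 1 higher and 0 lower without either cKO library). For the 85 ribosomal protein genes, 0 and 0 in limma, the block gave 1 higher (*Rps27l*, limma adjusted p = 0.0117) and 1 lower (*Rps13*, limma adjusted p = 0.0463), where 6.03% and 8.36% of all tested genes were called, edgeR with the block gave 2 higher (*Rps27l* and *Rpl4*) and 1 lower (*Rps13*), where 6% and 8.27% were called, and summed pseudogene copies with the block gave 1 higher and 0 lower. Of the 73 ribosome biogenesis genes, the block gave 17 higher and 0 lower in limma (*Rrp12* adjusted p = 0.00066, *Bysl* adjusted p = 0.0075) and 21 higher and 0 lower in edgeR. The block in limma also gave 7 higher of 77 mitochondrial ribosomal protein genes, 3 of 15 rescue genes, 3 of 14 TOP regulators, 1 of 18 other TOP mRNAs, 1 of 22 polymerase III genes and 0 of 20 polymerase I genes, with 0 lower in each list. The replicate numbers share no stated batch or animal. The deviations of same-numbered libraries from their group means correlated at 0.452 over tested genes and at -0.125 over the 85 genes, which was 0.519 over 84 genes without *Rpl6l*. Both replicate 2 libraries carried *Xist* and both replicate 1 libraries did not, so the number also follows that difference. The median log2 difference in limma is 0.066 with or without the block, because in this balanced layout the block cannot change a log2 difference. The cause of these changes in counts was not tested. The summing of pseudogene copies, the separate replicate pairs and the restriction to genes with at least 50% unique words were chosen after seeing the data.

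Of 540 alternative values for 32 named genes, 514 kept direction and side of the threshold, 6 newly passed it and 20 changed sign, 18 of them when a library was left out. The block, the fit without the trend and other mean thresholds return the same limma log2 difference, so direction could not change under them. The same holds for summed copies in genes without copies. The 514 values include such runs. Recentring on the medians turned *Rpl39* to 0.028 and *Rpl3* to 0.00082. With a library left out, log2 differences ranged from -0.012 to 0.33 for *Rpl35a*, -0.018 to 0.20 for *Rpl32*, -0.037 to 0.17 for *Rps4x*, -0.070 to 0.20 for *Rps27a*, -0.093 to 0.21 for *Rpl10*, -0.13 to 0.17 for *Rpl7*, -0.076 to 0.030 for *Rpl39*, -0.15 to 0.053 for *Rpl3*, -0.20 to 0.076 for *Rpl7l1*, -0.35 to 0.23 for *Rps27*, -0.52 to 0.0071 for *Rps4l*, -0.56 to 0.033 for *Rpl22l1* and -0.81 to 0.023 for *Rpl24*. The other 19 named genes, including *Rps27l*, *Rpl4*, *Rplp0* and *Rps13*, kept their sign under every alternative run, including the runs that could not change it. The median and the share of counts kept their sign under every alternative run, the share at 0.256 points with TMM-scaled library sizes. Both moved by less than the spread between replicates. For the median that spread (0.082) is larger than the median itself, so this says little about its stability. Both were smaller without control replicate 1, as given above.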

Other observations

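The mitochondrial ribosome, whose proteins are encoded by separate nuclear genes, was mostly above control. Of 77 tested *Mrpl* and *Mrps* genes, 60 were above 0, and the median log2 difference was 0.12. limma called 0 (9 at an unadjusted p under 0.05), edgeR 0 and DESeq2 0. Of all tested genes, 50.2% were above 0 and 15.7% had an unadjusted p under 0.05 in limma. Their share of normalized counts was 0.296% and 0.326% in control and 0.328% and 0.338% in cKO, without overlap (exact permutation test, p = 0.333). *Mrps6*, a small-subunit gene, had 265 and 394 normalized counts in control and 459 and 521 in cKO (log2 difference 0.60, SE 0.230, limma adjusted p = 0.308). *Mrps18b* had 300.0 and 319 in control and 427 and 456 in cKO (log2 difference 0.51).

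Of 15 genes that rescue or survey stalled ribosomes, 11 were above 0 (50.2% of all tested genes), with a median log2 difference of 0.075. limma called 0, edgeR 0 and DESeq2 0. In limma 4 had an unadjusted p under 0.05, compared with 15.7% of all tested genes. *Gtpbp2*, a rescue GTPase, had 3090 and 3148 normalized counts in control and 3685 and 4299 in cKO (log2 difference 0.35, SE 0.110, limma adjusted p = 0.237). *Abce1*, which splits ribosome subunits, had 5348 and 5870 in control and 7182 and 7065 in cKO (log2 difference 0.35, SE 0.095, limma adjusted p = 0.192).

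Among the 74 ribosomal protein genes that averaged 1000 or more normalized counts, the mean difference between replicates 1 and 2 was larger than the genotype difference in 43.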
